A study of Mus musculus with 8 samples.

Results

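The genes described here were 10 ligands and receptors of transforming growth factor beta (TGF-β) and bone morphogenetic protein (BMP) signalling: the ligands Tgfb1, Tgfb2, Tgfb3, Bmp4, Bmp6 and Bmp7 and the receptors Tgfbr1, Tgfbr2, Tgfbr3 and Bmpr1b. They were taken by gene symbol from an array table of 41345 transcript clusters (the units for which these arrays give 1 value), and where a gene has several clusters the one with the highest mean over all arrays stands for it. All 10 genes were found, each with 1 cluster, and all 10 lay above a background floor of 4.68 on the log2 scale, as did 16217 genes with a single symbol. The brain vessels came from 2-month-old male C57Bl6 mice and were prepared either with an enzymatic step that partly digests the basal lamina (digested, 4 arrays) or by mechanical homogenization alone (undigested, 4 arrays). Endfeet, the ends of astrocyte processes that wrap vessels, are attached through the basal lamina, and the study looked for transcripts that leave the preparation together with them. Each array held RNA of vessels pooled from several mice, so that p-values measure the spread between pools. Digestion replaced the homogenization by a warm incubation with Liberase and DNAse, and the loss of endfeet and the dissociation itself cannot be told apart in this design.

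TGF-β ligands are secreted in a latent complex that is anchored in the extracellular matrix and must be activated before the ligand can bind. Active TGF-β and BMP ligands assemble pairs of type II and type I kinase receptors, which phosphorylate receptor-specific Smad proteins that enter the nucleus and change transcription. In brain vessels this signalling runs between endothelial cells, pericytes and smooth muscle cells, and its loss is known to weaken the vessel wall.

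Promoter windows are shown for 3 of these genes, chosen for their array results: Tgfb2 rose, Tgfbr2 fell and Tgfb1, a paralog of Tgfb2, did not pass the test. Whether the windows bear on these differences was not tested. Tgfb1 and Tgfb2 are ligands of the same receptors, and Tgfbr2 is the type II receptor that binds them. Each window holds the 250 bases before an annotated RefSeq start site, in build GRCm38.p6: chr7:25686752-25687001 on the plus strand for Tgfb1, chr1:186705990-186706239 on the minus strand for Tgfb2, and chr9:116175364-116175613 on the minus strand for Tgfbr2. The Tgfb2 window lay inside the annotated span of its gene and the other 2 lay outside theirs. Capitals mark matches, on either strand, to the 7 motifs searched.
Tgfb1: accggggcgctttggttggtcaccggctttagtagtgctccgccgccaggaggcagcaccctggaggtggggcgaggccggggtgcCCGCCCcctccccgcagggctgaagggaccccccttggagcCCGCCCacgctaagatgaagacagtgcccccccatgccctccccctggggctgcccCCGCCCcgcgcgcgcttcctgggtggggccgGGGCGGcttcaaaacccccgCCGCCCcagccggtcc
Tgfb2: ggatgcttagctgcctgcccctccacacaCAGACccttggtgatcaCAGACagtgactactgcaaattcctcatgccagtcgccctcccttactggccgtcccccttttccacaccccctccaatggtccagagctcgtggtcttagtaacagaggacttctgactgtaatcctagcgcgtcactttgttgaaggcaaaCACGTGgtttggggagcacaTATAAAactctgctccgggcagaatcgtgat
Tgfbr2: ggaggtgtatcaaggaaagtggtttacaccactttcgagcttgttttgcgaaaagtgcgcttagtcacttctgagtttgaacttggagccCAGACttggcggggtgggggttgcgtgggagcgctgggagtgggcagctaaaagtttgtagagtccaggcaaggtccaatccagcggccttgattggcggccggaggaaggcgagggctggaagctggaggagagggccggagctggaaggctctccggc
The motifs were the GC box (GGGCGG, in 32.7% of all 32851 windows of that length), the TATA box (TATAAA, 12.4%), the E-box (CACGTG, 6.02%), the CAGA box (CAGAC, 42.2%), the core of the BMP response element (GGCGCC, 9.59%), the AP-1 site (TGAGTCA, 4.46%) and the CRE (TGACGTCA, 1.55%). The Tgfb1 window held 5 GC boxes and none of the other letters, and its GC content was 75.2%, against a median of 52.4% over all windows. The Tgfb2 window held no GC box. Its TATA box began at position -31 from the start site and its E-box at -51, with CAGA boxes at -221 and -204 and a GC content of 53.6%. The Tgfbr2 window held 1 CAGA box, at -160, and its GC content was 58.4%. Windows were found for 7 of the 10 genes, and a match of letters is a description of the window and not of factor binding.

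Among the ligands of TGF-β, Tgfb2 and Tgfb3 rose in digested vessels and Tgfb1 did not pass the test. Over the 10 genes, 2 rose and 2 fell at an adjusted p of 0.05, where 14.4% of all 16217 genes rose and 9.04% fell (23.4% in either direction). None of the 10 changed 2-fold. Their median difference was -0.14 on the log2 scale, digested minus undigested, against 0.02 over all genes tested. In vessel RNA of this kind, fewer cells of a type and less RNA per cell cannot be told apart.

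**Figure D1:**
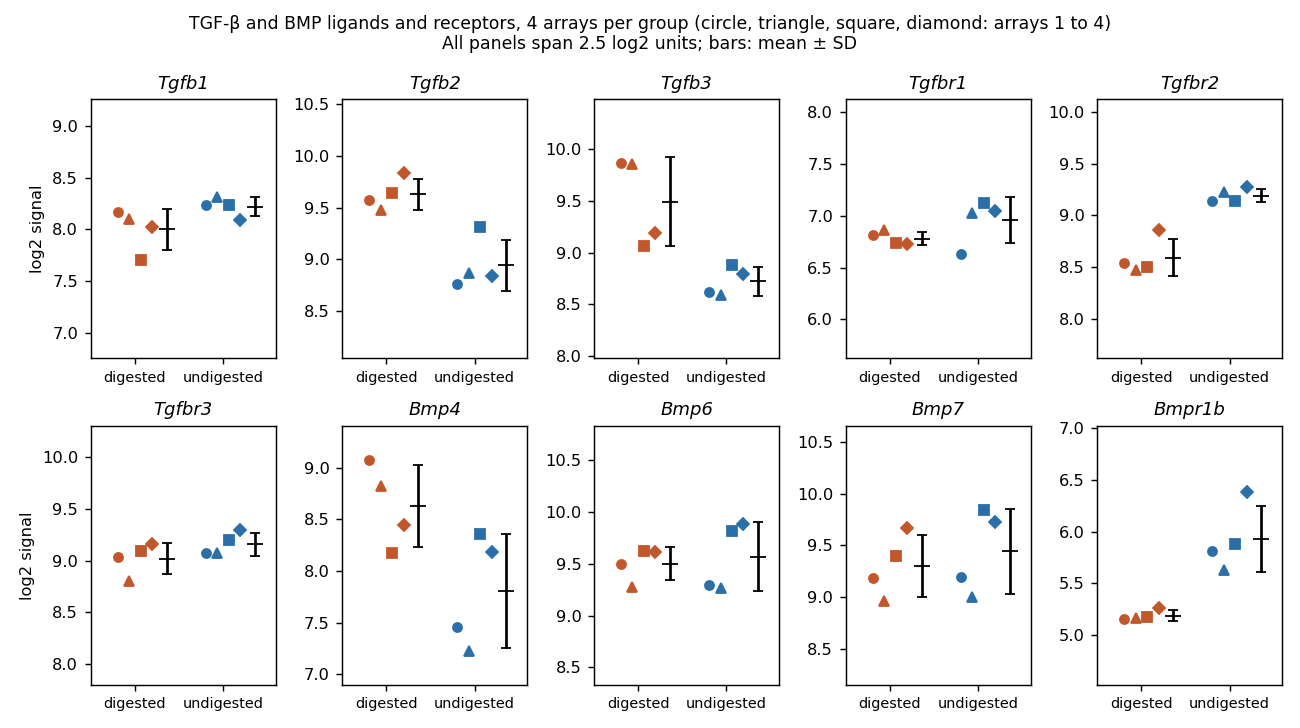
Log2 signal of each ligand and receptor gene on the 4 digested and the 4 undigested arrays, with symbols for arrays 1 to 4 and bars for the mean ± SD of each group. The digested and undigested points are apart for Tgfb2, Tgfb3, Tgfbr2 and Bmpr1b and overlap for the other 6 genes.

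Tgfb2 encodes the TGF-β isoform that needs the co-receptor betaglycan for efficient binding. Its log2 values were 9.57, 9.48, 9.64 and 9.83 on the digested arrays, against 8.76, 8.87, 9.31 and 8.84 on the undigested arrays. All digested values lay above all undigested ones, with a gap of 0.17 between the groups. Tgfb2 averaged 9.63 ± 0.15 in digested vessels and 8.94 ± 0.25 in undigested vessels (SD, n = 4 each), a rise of 0.69 (SE 0.13, 95% interval 0.39 to 0.98, 1.61-fold; limma, adjusted p = 0.00749). The rise was 0.71 between the arrays numbered 1 and 2 and 0.66 between those numbered 3 and 4. The call held without each array in turn (limma, highest adjusted p = 0.024). Leaving out undigested arrays 1 and 2 together gave 0.56 and ended the call (limma, adjusted p = 0.076).

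Tgfb3, the third TGF-β isoform, had log2 values of 9.87, 9.86, 9.06 and 9.19 on the digested arrays and 8.62, 8.59, 8.88 and 8.79 on the undigested arrays. Digested arrays 1 and 2 stood clearly above digested arrays 3 and 4, and the lowest digested value lay 0.18 above the highest undigested one. The means were 9.49 ± 0.43 and 8.72 ± 0.14 in digested and undigested vessels, and the rise of 0.78 (SE 0.19, 95% interval 0.34 to 1.21, 1.71-fold) passed the test (limma, adjusted p = 0.021). It was 1.26 between the arrays numbered 1 and 2 of each group and 0.29 between those numbered 3 and 4. The call was lost without digested array 1 (0.65, adjusted p = 0.0512), undigested array 1 (0.75, 0.0561) or undigested array 2 (0.73, 0.0567).

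Tgfb1, the isoform best known from wound healing and immune regulation, had log2 values of 8.17, 8.10, 7.70 and 8.02 on the digested arrays and 8.23, 8.31, 8.23 and 8.09 on the undigested arrays. The groups overlapped, and digested array 3 was the lowest of the 8. Tgfb1 averaged 8.0 ± 0.20 in digested and 8.22 ± 0.09 in undigested vessels, a difference of -0.22 (95% interval -0.47 to 0.03, limma, adjusted p = 0.194). Within arrays, Tgfb1 minus Tgfb2 ran between -1.94 and -1.38 in digested vessels and between -1.07 and -0.53 in undigested vessels, a difference of -0.91 between the groups. For Tgfb1 minus Tgfb3 these ranges were -1.76 to -1.17 and -0.70 to -0.27, a difference of -1.0. Neither pair of ranges overlapped, and each gave the smallest p that the 70 assignments of the arrays allow (exact two-sided permutation test, p = 0.0286), which was 0.0514 after adjustment over the 9 pairs compared. Without digested array 4 both pairs passed, as did Tgfbr1 minus Tgfbr2, Tgfbr2 minus Tgfbr3, Bmp4 minus Bmp6 and Bmp4 minus Bmp7 (exact permutation, adjusted p = 0.0429 each). For all of them but Tgfbr1 minus Tgfbr2 only the adjustment changed. Their exact permutation p stayed at 0.0286, and Tgfbr1 minus Tgfbr2 joined them at this smallest possible p. Tgfb2 and Tgfb3 differed from each other in their change by -0.09 (exact permutation p = 0.771).

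The receptors went the other way or did not pass. Tgfbr2, the type II receptor that binds TGF-β ligands first and then recruits the type I receptor, had log2 values of 8.54, 8.47, 8.50 and 8.86 on the digested arrays and 9.14, 9.23, 9.14 and 9.27 on the undigested arrays. All digested values lay below all undigested ones, by a gap of 0.28, and digested array 4 was closest to the undigested arrays. The means were 8.59 ± 0.18 in digested and 9.19 ± 0.06 in undigested vessels, a difference of -0.60 (SE 0.10, 95% interval -0.83 to -0.37, 1.52-fold lower; limma, adjusted p = 0.00428). It was -0.68 and -0.52 in the arrays numbered 1 and 2 and in those numbered 3 and 4, and the call held without each array in turn.

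Tgfbr1, the type I kinase receptor of TGF-β, had log2 values of 6.81, 6.86, 6.74 and 6.73 on the digested arrays and 6.63, 7.03, 7.12 and 7.05 on the undigested arrays. Undigested array 1 had the lowest value of all 8 and the other 3 undigested arrays had the highest, so the groups overlapped. The difference was -0.17 (95% interval -0.43 to 0.08, limma, adjusted p = 0.315). Tgfbr3 encodes betaglycan, a co-receptor without kinase activity that presents ligand to Tgfbr2. Its values were 9.04, 8.80, 9.09 and 9.16 on the digested arrays and 9.07, 9.07, 9.20 and 9.30 on the undigested arrays, with overlap and a difference of -0.14 (95% interval -0.36 to 0.09, adjusted p = 0.371). Tgfbr2 minus Tgfbr3 within arrays lay between -0.59 and -0.30 in digested and between -0.07 and 0.16 in undigested vessels, a difference of -0.46 (exact permutation p = 0.0286, adjusted 0.0514). Tgfbr1 minus Tgfbr2 changed by 0.43 (exact permutation p = 0.0571, adjusted 0.0857) and Tgfbr1 minus Tgfbr3 by -0.04 (exact permutation p = 0.83).

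Bmpr1b, a type I kinase receptor for BMPs, had the most negative difference of the 10 genes. Its log2 values were 5.16, 5.17, 5.18 and 5.26 on the digested arrays and 5.81, 5.63, 5.88 and 6.38 on the undigested arrays. The digested arrays lay within a narrow band near the floor of 4.68, and the lowest undigested value was 0.36 above the highest digested one. Bmpr1b averaged 5.19 ± 0.05 in digested and 5.93 ± 0.32 in undigested vessels, a difference of -0.73 (SE 0.15, 95% interval -1.06 to -0.40, 1.66-fold lower; limma, adjusted p = 0.0088). The groups did not overlap for 4 of the 10 genes, Tgfb2, Tgfb3, Tgfbr2 and Bmpr1b, whereas 29.6% of all genes had no overlap. The astrocyte list, led by the water channel gene Aqp4, fell alongside Bmpr1b. Of its 30 measured genes 22 fell and none rose, where 9.04% of all genes fell and 14.4% rose. Its mean log2 level ranged between 7.30 and 7.60 on the digested arrays and between 8.23 and 8.57 on the undigested arrays. Aqp4 averaged 6.5 ± 0.28 in digested and 8.99 ± 0.31 in undigested vessels. Other lists were lower too. Median differences were -0.99 for the astrocyte list, -0.78 for perivascular macrophages, -0.73 for perivascular fibroblasts and -0.61 for pericytes. They were -0.60 for motile cilia, -0.42 for endothelium and -0.39 for microglia. The smooth muscle, choroid plexus, oligodendrocyte and neuron lists had positive medians. The part of any of these cell types in the Bmpr1b difference was not tested.

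Of the ligands Bmp4, Bmp6 and Bmp7, none passed the test on the deposited values. Bmp4, a ligand that acts in vessels and in early development, had log2 values of 9.07, 8.82, 8.17 and 8.45 on the digested arrays and 7.46, 7.23, 8.36 and 8.18 on the undigested arrays. Digested arrays 1 and 2 were the highest and undigested arrays 1 and 2 the lowest, while arrays 3 and 4 of the 2 groups overlapped. Bmp4 averaged 8.63 ± 0.40 in digested and 7.81 ± 0.55 in undigested vessels, a difference of 0.82 (SE 0.28, 95% interval 0.19 to 1.44, limma, adjusted p = 0.0653). It was 1.59 between the arrays numbered 1 and 2 and 0.04 between those numbered 3 and 4. Without undigested array 3 the difference was 1.00 and passed (limma, adjusted p = 0.034).

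Bmp6, a ligand that endothelial cells of the liver secrete to control hepcidin, had values of 9.50, 9.28, 9.62 and 9.61 on the digested arrays and 9.30, 9.27, 9.82 and 9.89 on the undigested arrays. Bmp7, a ligand needed for kidney and eye development, had 9.18, 8.96, 9.40 and 9.67 on the digested arrays and 9.19, 9.0, 9.84 and 9.72 on the undigested arrays. In both genes undigested arrays 1 and 2 lay below undigested arrays 3 and 4, and the groups overlapped over most of their range. The differences were -0.07 for Bmp6 (95% interval -0.43 to 0.29, limma, adjusted p = 0.795) and -0.14 for Bmp7 (95% interval -0.62 to 0.35, adjusted p = 0.696). Bmp4 changed relative to Bmp6 by 0.89 and relative to Bmp7 by 0.95 within arrays, each with an exact permutation p of 0.0286 and 0.0514 after adjustment over the 9 pairs. Bmp6 and Bmp7 differed in their change by 0.07 (exact permutation p = 0.543).

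Smooth muscle, choroid plexus and fibroblast RNA varied between the same arrays. The smooth muscle list had mean log2 levels of 9.94, 9.92, 9.14 and 9.32 on the digested arrays and between 9.02 and 9.22 on the undigested arrays. Its difference was 0.89 between the arrays numbered 1 and 2 and 0.06 between those numbered 3 and 4, beside 1.26 and 0.29 for Tgfb3 and 1.59 and 0.04 for Bmp4. Of its 18 genes 3 rose and 1 fell, and its first markers did not pass: Acta2 averaged 12.84 ± 0.19 in digested and 12.48 ± 0.13 in undigested vessels, and Myh11 averaged 11.78 ± 0.43 in digested and 11.19 ± 0.09 in undigested vessels. The choroid plexus epithelium list had 10.04, 9.75, 10.31 and 10.37 on the digested arrays and 8.49, 8.37, 9.28 and 9.26 on the undigested arrays, and 14 of its 18 measured genes rose and none fell. The perivascular fibroblast list had 8.03, 7.93, 8.11 and 8.17 on the digested arrays and 8.55, 8.54, 9.09 and 8.99 on the undigested arrays, with 14 of 22 genes lower. Beside these 3 lists, 14.4% of all genes rose and 9.04% fell. Levels of Bmp4, Bmp6 and Bmp7 were lower on undigested arrays 1 and 2 than on undigested arrays 3 and 4, and so were the means of 9 of the 11 cell type lists, all but the endothelial and the pericyte list. The part of these cell types in the values of the 10 genes was not tested.

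**Figure D2:**
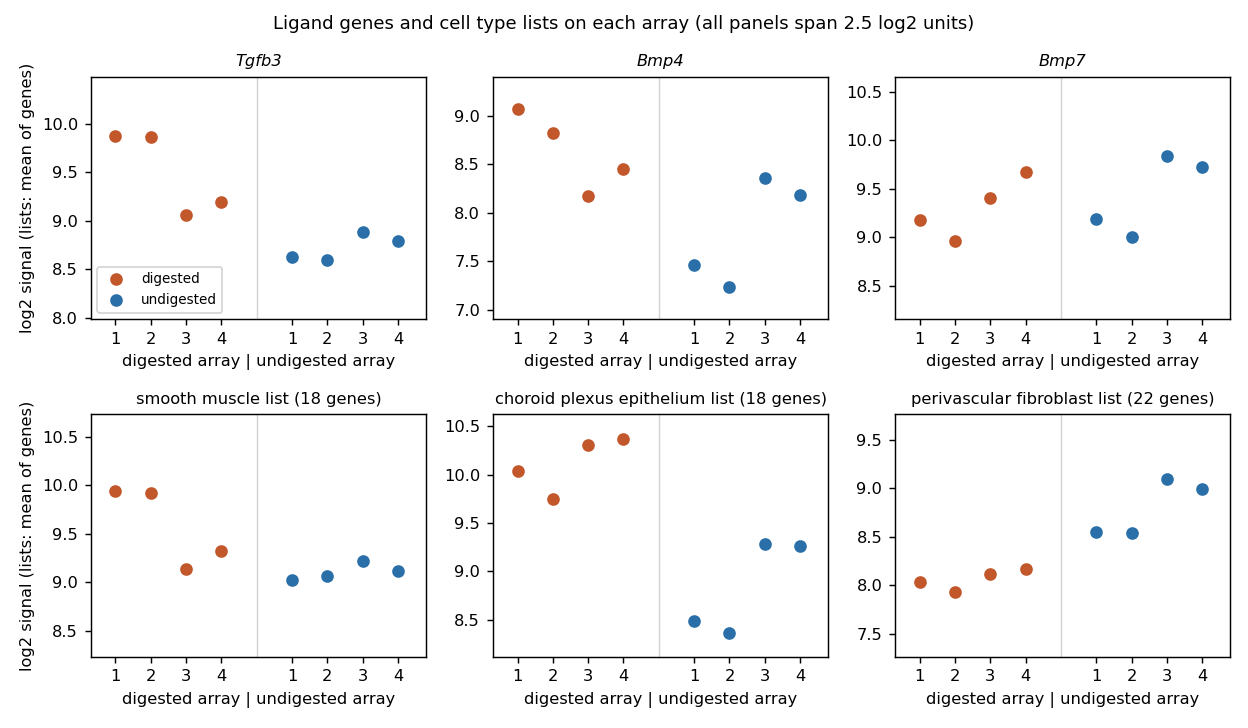
Log2 signal of Tgfb3, Bmp4 and Bmp7 (top) and mean log2 signal of 3 cell type lists (bottom) on the digested arrays 1 to 4 (left of the line) and the undigested arrays 1 to 4 (right of it). Tgfb3 and the smooth muscle list are highest on digested arrays 1 and 2, and Bmp7 and both other lists are lower on undigested arrays 1 and 2 than on undigested arrays 3 and 4.

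The other cell types of the vessel wall were checked in the same way, beside 14.4% of all genes that rose and 9.04% that fell. Endothelial genes fell in 15 of 29 cases and none rose, with list means between 9.38 and 9.70 on the digested arrays and between 9.88 and 10.21 on the undigested arrays. The endothelial cadherin gene Cdh5 averaged 10.78 ± 0.13 in digested and 11.33 ± 0.16 in undigested vessels, while Pecam1, another endothelial adhesion gene, did not pass (10.59 ± 0.28 in digested and 10.89 ± 0.10 in undigested vessels, limma, adjusted p = 0.155). Pericyte genes fell in 12 of 19 cases, and Pdgfrb, the receptor of platelet-derived growth factor in pericytes, averaged 10.07 ± 0.15 in digested and 10.57 ± 0.15 in undigested vessels. Cspg4, a proteoglycan gene of pericytes, had the opposite sign and did not pass (8.79 ± 0.52 in digested and 8.35 ± 0.18 in undigested vessels, adjusted p = 0.209). Markers of neurons (6 of 15 higher) and oligodendrocytes (5 of 14 higher, 1 lower) were present too, and those of perivascular macrophages (9 of 14 lower) and microglia (7 of 16 lower) fell in part. Of 23 genes of motile cilia, a mark of ependymal cells, 12 fell and 3 rose. The 2 first-listed markers of each list had group means above the floor in both groups.

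The result depended on the level to which the arrays were scaled. Centring each array on its endothelial list moved the median difference of all genes to 0.48 and that of the 10 genes to 0.32. On that scale 15627 of the 27658 clusters tested passed. Tgfb2, Tgfb3 and Bmp4 were among those higher in digested vessels. The differences of Tgfbr2 (-0.14) and Bmpr1b (-0.28) did not pass there (limma, adjusted p = 0.412 and 0.249). Centring on the array median moved the median of all genes to 0.11, kept the calls of Tgfb2, Tgfb3, Tgfbr2 and Bmpr1b and added Bmp4 (0.91, adjusted p = 0.045). Of the calls over all clusters, 47.9% were lower on the deposited scale, against 29.7% after median centring and 2.71% after endothelial centring.

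**Figure D3:**
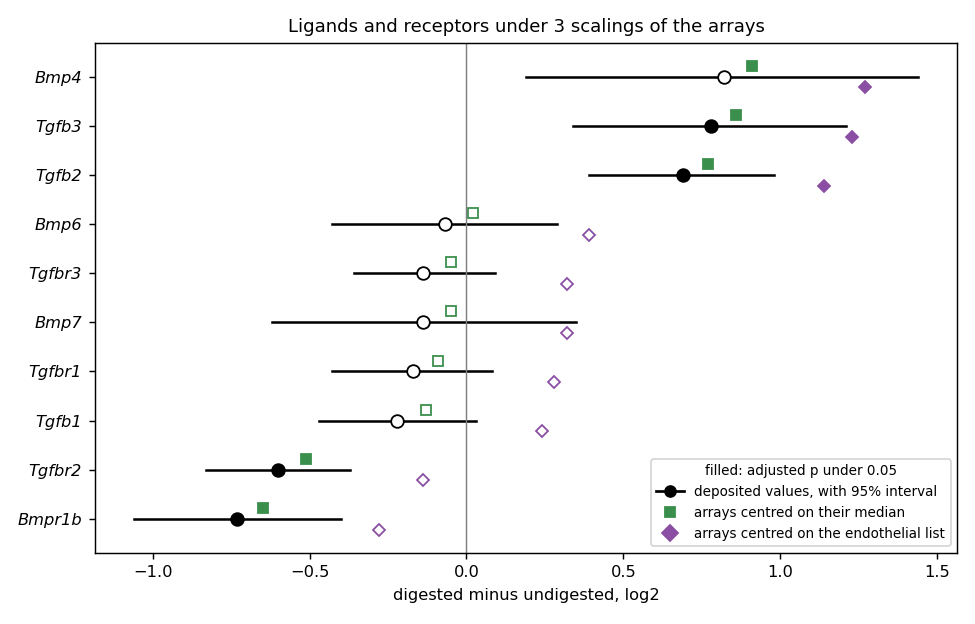
Difference in log2 signal, digested minus undigested, of each gene on the deposited scale (circles, with 95% intervals), with arrays centred on their median (squares) and with arrays centred on the endothelial list (diamonds). Filled symbols passed at an adjusted p of 0.05: Tgfb2 and Tgfb3 are filled under all 3, and Tgfbr2 and Bmpr1b are open after endothelial centring. After that centring 15627 of the 27658 clusters tested passed.

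Of 25 measured ligand genes of the wider superfamily, 3 rose, 4 fell and 18 did not pass, with a median of 0.01. The 7 that passed are 28% of the list, beside 23.4% of all genes. Under a floor higher by 1 log2 unit, 14 ligand genes remained, of which 2 rose and 2 fell. Besides Tgfb2 and Tgfb3, Inhba rose, which encodes the subunit of activin A. It averaged 5.87 ± 0.35 in digested and 5.34 ± 0.13 in undigested vessels (0.54, limma, adjusted p = 0.0451). Bmp5, a close relative of Bmp6 and Bmp7, averaged 6.88 ± 0.17 in digested and 7.60 ± 0.36 in undigested vessels, a difference of -0.71 (adjusted p = 0.0191). Gdf10 averaged 5.80 ± 0.04 in digested and 6.24 ± 0.15 in undigested vessels (-0.44, adjusted p = 0.0103). Bmp15, an oocyte ligand, averaged 4.98 ± 0.08 in digested and 5.48 ± 0.15 in undigested vessels, close to the floor in both.

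Receptors and co-receptors comprised 19 measured genes, of which 2 rose, 4 fell and 13 did not pass (median -0.13). Of all genes, 14.4% rose and 9.04% fell. With the stricter floor 15 remained, of which 2 rose and 2 fell. Eng, which encodes the endothelial TGF-β co-receptor endoglin, averaged 11.12 ± 0.13 in digested and 11.51 ± 0.13 in undigested vessels, a difference of -0.39 (limma, adjusted p = 0.025). The endothelial list, of which Eng is a member, had a median difference of -0.42. Bmpr2, the type II receptor for BMPs, averaged 11.63 ± 0.09 in digested and 11.84 ± 0.05 in undigested vessels and did not pass (-0.21, adjusted p = 0.0871). Acvr1b, a type I receptor for activin, averaged 7.89 ± 0.09 in digested and 7.53 ± 0.18 in undigested vessels and rose by 0.36 (adjusted p = 0.0377). Hjv, a BMP co-receptor of iron regulation, averaged 6.52 ± 0.52 in digested and 5.74 ± 0.21 in undigested vessels (0.77, adjusted p = 0.0436). Tdgf1, a Nodal co-receptor, averaged 4.66 ± 0.04 in digested vessels, under the floor, and 5.13 ± 0.06 in undigested vessels. It is among the 4 that fell, but it cleared the floor only through the undigested arrays, so its call is not read as a result.

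Genes of latency and activation, which set how much TGF-β becomes available, had 3 higher and 1 lower among 12 measured (median 0.17). The other 8 did not pass, and 23.4% of all genes passed in either direction. Thbs1, which encodes thrombospondin-1, an activator of latent TGF-β, averaged 8.95 ± 0.24 in digested and 7.92 ± 0.32 in undigested vessels, a rise of 1.03 (2.05-fold, limma, adjusted p = 0.00426). The latent TGF-β binding protein genes Ltbp1 and Ltbp3 rose by 0.68 and 0.37 (adjusted p = 0.0271 and 0.0366). Ltbp1 averaged 8.66 ± 0.39 in digested and 7.98 ± 0.15 in undigested vessels, and Ltbp3 averaged 8.75 ± 0.09 in digested and 8.38 ± 0.19 in undigested vessels. Ltbp4, another gene of this family, differed by -0.02 (adjusted p = 0.946). Nrros, which anchors latent TGF-β on microglia and macrophages, averaged 6.03 ± 0.10 in digested and 6.48 ± 0.08 in undigested vessels (-0.45, adjusted p = 0.00638).

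Secreted antagonists numbered 18 measured genes, of which 1 rose, 2 fell and 15 did not pass (median 0.04), where 23.4% of all genes passed. Sostdc1, an antagonist of BMP and Wnt ligands, had the largest difference of all genes in these 6 pathway lists. It averaged 11.00 ± 0.21 in digested and 9.38 ± 0.53 in undigested vessels, a rise of 1.63 (3.09-fold, limma, adjusted p = 0.00242), and it also belongs to the choroid plexus list, whose median difference was 1.34. Dcn, which encodes the TGF-β binding proteoglycan decorin and belongs to the fibroblast list, averaged 9.66 ± 0.18 in digested and 10.31 ± 0.32 in undigested vessels (-0.65, adjusted p = 0.0217). Nbl1, a BMP antagonist of the DAN family, averaged 8.68 ± 0.14 in digested and 9.22 ± 0.16 in undigested vessels (-0.54, adjusted p = 0.00893). Bgn, which encodes the related proteoglycan biglycan, averaged 12.16 ± 0.34 in digested and 11.73 ± 0.24 in undigested vessels and did not pass (adjusted p = 0.126).

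Among 18 genes of Smads and their regulators, 2 rose, 1 fell and 15 did not pass (median 0.02), where 23.4% of all genes passed. Nedd4l, a ubiquitin ligase for activated Smads, averaged 8.17 ± 0.12 in digested and 8.74 ± 0.05 in undigested vessels, a difference of -0.57 (limma, adjusted p = 0.00256). Smad9, a receptor Smad of the BMP branch, rose by 0.41 (adjusted p = 0.04) and Tob1, a repressor of BMP Smads, by 0.34 (adjusted p = 0.0438). Smad4, the shared partner of all receptor Smads, differed by -0.17 (adjusted p = 0.161).

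Target genes of the 2 branches did not move one way. There were 25 with a value, of which 2 rose, 4 fell and 19 did not reach the threshold (median 0.00). Beside them, 14.4% of all genes rose and 9.04% fell (23.4% in either direction). Smad9, which rose, is counted both here and among the Smads. The inhibitor of differentiation genes Id1 and Id2, both known targets of BMP signalling, moved in opposite directions. Id2 averaged 9.27 ± 0.02 in digested and 8.62 ± 0.16 in undigested vessels, a rise of 0.65 (limma, adjusted p = 0.00213). Id1 averaged 8.57 ± 0.14 in digested and 9.07 ± 0.32 in undigested vessels, a difference of -0.50 (adjusted p = 0.0476). Col1a1, the collagen chain gene induced by TGF-β and the first marker of the fibroblast list, averaged 7.95 ± 0.15 in digested and 8.99 ± 0.24 in undigested vessels (-1.04, adjusted p = 0.00153). Col1a2, its partner chain, differed by -0.63 (adjusted p = 0.00536). Of the 22 named genes outside the 10 that passed, 12 kept their call without each array in turn, and Acvr1b, Dcn, Eng, Hjv, Id1, Inhba, Ltbp1, Ltbp3, Smad9 and Tob1 each lost it when any of at least 3 of the 8 arrays was left out singly. On the endothelial scale no gene of the first 5 lists fell and 1 of the targets did. Only 2.71% of all calls were lower on that scale, so few lower genes in any list follow from the centring.

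**Figure D4:**
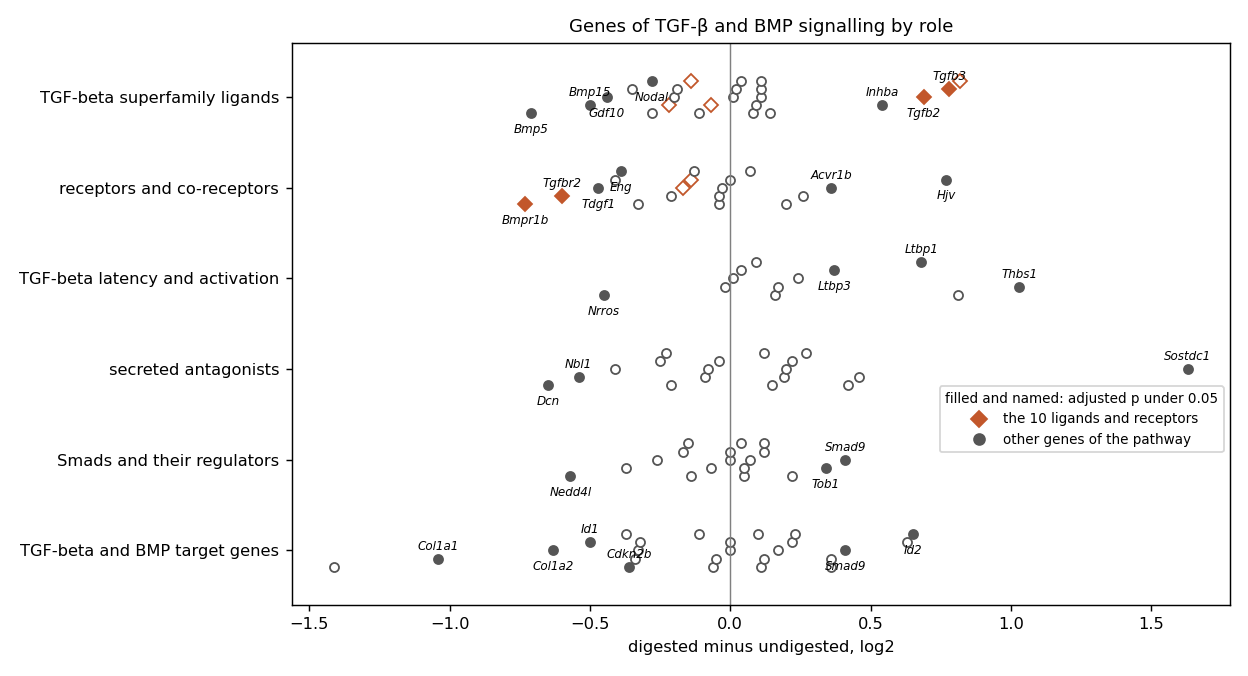
Difference in log2 signal, digested minus undigested, of each measured gene in 6 lists of the pathway, on the deposited scale. Filled and named symbols passed at an adjusted p of 0.05 (diamonds: the 10 ligands and receptors), and most symbols in each list are open. After endothelial centring no gene of the first 5 lists was lower in digested vessels at that threshold, where only 2.71% of all calls were lower.

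The genes whose profiles were nearest to those of Bmpr1b and Bmp4 were looked up by the root mean square difference of the 8 values, each gene centred on its own mean, over 16216 genes. Bmpr1b, with the most negative difference, was nearest to the metallothionein gene Mt1 (0.10), the sulfotransferase gene Chst2 (0.11) and Prdm6 (0.11), against a median of 0.45 over all genes. Bmp4, with the most positive difference, was nearest to Efhd1, the matrix protease gene Adamts5 and the prostacyclin synthase gene Ptgis (0.22 each), against a median of 0.59. Efhd1, Adamts5 and Ptgis had differences of 1.48, 1.34 and 1.37 between the arrays numbered 1 and 2, against 0.28, 0.38 and 0.04 between those numbered 3 and 4. All these genes were picked for their nearness on the same 8 arrays. Distances under the median and a split between arrays like that of Bmp4 therefore follow from the selection and are given as description only.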

How the data were processed

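Affymetrix Mouse Gene 2.0 arrays measured RNA of digested (4) and undigested (4) brain vessel preparations. In the deposited table every transcript cluster has a log2 value for each array. The methods of the authors describe quantile normalization after a background correction that uses antigenomic probes, but the sources do not say whether these values had it, and that they are log2 was inferred from their size. Array medians ran between 5.58 and 5.61 on the digested arrays and between 5.66 and 5.71 on the undigested arrays, without overlap. Precision is limited by the 4 arrays in each group. Arrays of a group correlated at r = 0.976 to 0.982 (digested) and 0.972 to 0.986 (undigested), against 0.946 to 0.962 between groups, and a second principal component (15.1% of the variance) parted undigested arrays 1 and 2 (18.9 and 17.9) from 3 and 4 (-25.8 and -20.1). On it digested arrays 1 and 2 (7.9 and 18.8) also lay above 3 and 4 (0.6 and -18.0). No label names such a division.

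Symbols came from the platform table (single for 23521 clusters, several for 1820, none for 16004), checked against RefSeq (23328 identifiers matched, 0 changed). As floor served the 90th percentile, over 1400 olfactory and vomeronasal receptor clusters, of their mean level, and 27658 clusters above it were tested two-sided with lmFit and eBayes of limma 3.58.1 (R 4.3.3) without covariates, and p-values were adjusted by Benjamini-Hochberg over all of them. In all 5872 passed, 3059 higher and 2813 lower in digested vessels. For 9 pairs of related genes the within-array difference was compared by an exact two-sided permutation test. Pathway and cell type lists were written from textbook knowledge and are described by counts and medians. The genes and lists were chosen with earlier results of these data known. Besides the 10 genes, those to be named were, for each pathway list, up to 3 genes past the test with the largest change in each direction and the one with the highest signal, for each cell type list the 2 first markers, and the nearest profiles. Not every gene that meets this rule is given. Levels of different genes were not compared, since probes differ. Alternatives were 3 other scalings, other filters, trended or weighted fits, a block for the replicate number and the t-test of the methods, Benjamini-Hochberg adjusted. Further ones were all clusters of a gene, and leaving out arrays singly or as undigested 1 and 2 or 3 and 4. No label says whether the replicate numbers pair the arrays, and the main fit did not pair them. The fit was tested on simulated data. Figures used Python 3.11.15, numpy 2.4.6, pandas 2.3.3 and matplotlib 3.10.9.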

Additional observations from a re-analysis of the deposited data

Results flagged for a closer look

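In 76 groups of 4 arrays, over 38 genes, the highest or lowest value was looked at for its distance to the others. Undigested array 1 had a Tgfbr1 level of 6.63, lower by 0.41 than the nearest other undigested array, a gap that took up 0.84 of the range of the group. Digested array 4 had a Tgfbr2 level of 8.86, higher by 0.32 than the nearest other digested array, or 0.83 of the range. Both shares are just past the critical value of Dixon's test for 4 values, which chance passes in about 5% of groups. Without undigested array 1 the Tgfbr1 difference was -0.28 and did not pass (limma, adjusted p = 0.0523), and without digested array 4 the Tgfbr2 call held.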

How the results depend on the processing

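Centring on the endothelial list turned the sign of Tgfb1 (0.24), Tgfbr1 (0.28), Tgfbr3 (0.32), Bmp6 (0.39) and Bmp7 (0.32), none of which passed, ended the calls of Tgfbr2 (-0.14) and Bmpr1b (-0.28), made Bmp4 pass (1.27) and gave 15627 clusters. It also turned Bmpr2 (0.25), Ltbp4 (0.43) and Smad4 (0.29). Gdf10 (0.02), Eng (0.07) and Nrros (0.00), called lower on the deposited scale, were left with hardly any difference. Eng is itself on the list used for the centring. Median centring turned Bmp6 (0.02) and Ltbp4 (0.07) and made Bmp4 pass (0.91). Bmp4 also passed with array weights (0.98), which turned Ltbp4 (0.02), and without undigested arrays 3 and 4 (1.28), where Bmp6 and Bmp7 turned (0.21 each) and Tgfb3 did not pass (0.89). Without undigested arrays 1 and 2, 2415 clusters passed, Tgfb2 (0.56) and Tgfb3 (0.66) did not, and Gdf11 (-0.01) and Ltbp4 (0.00) turned. The methods' t-test, here with Benjamini-Hochberg adjustment, lost Tgfb3 (0.78) and 10 other named genes and made Bmpr2 pass. The 10 were Inhba, Bmp5, Hjv, Acvr1b, Ltbp1, Ltbp3, Dcn, Smad9, Tob1 and Id1. The paper itself used uncorrected p-values together with a fold threshold. Before adjustment the t-test p of the genes lost ran from 0.0117 (Bmp5) to 0.0325 (Hjv), under the threshold that their adjusted values missed. A second quantile normalization turned Tgfbr1 minus Tgfbr3 (0.04). The cause of these changes was not tested.

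Leaving out 1 array at a time gave differences between 0.65 and 0.92 for Tgfb3, 0.63 and 1.00 for Bmp4, -0.17 and 0.04 for Bmp6, and -0.13 and 0.14 for Ltbp4. Within arrays it gave between -1.02 and -0.80 for Tgfb1 minus Tgfb2, -1.11 and -0.91 for Tgfb1 minus Tgfb3, -0.26 and 0.08 for Tgfb2 minus Tgfb3, 0.33 and 0.53 for Tgfbr1 minus Tgfbr2, -0.13 and 0.03 for Tgfbr1 minus Tgfbr3, -0.51 and -0.41 for Tgfbr2 minus Tgfbr3, 0.74 and 1.08 for Bmp4 minus Bmp6, and 0.77 and 1.14 for Bmp4 minus Bmp7.

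Same-numbered arrays deviated together with correlations of 0.06, 0.18, -0.04 and 0.18, and 2 of 4 digested arrays correlated best with their own number. With the replicate block 5442 clusters passed, against 5872 without it, and none of the 10 genes changed its side of the threshold, while Acvr1b, Ltbp1, Dcn, Smad9 and Tob1 lost their calls. Under the stricter filter Bmpr1b had no value, since it lay below that floor.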
